A study of Mus musculus with 6 samples.

Results

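The subject here is the 9 genes of the M-CSF, GM-CSF and G-CSF ligands and receptors, chosen by name from the 22180 genes that the arrays measured. They are the ligand genes Csf1, Il34, Csf2 and Csf3 and the receptor genes Csf1r, Csf2ra, Csf2rb, Csf2rb2 and Csf3r, and all 9 were measured. Each gene is represented by a probe set that names it alone, and the brightest was kept where there were several, which among the 9 applied to Csf2. Bone marrow cells of C57Bl/6 mice had grown for 5 days in 20 ng/ml M-CSF before the resulting macrophages were replated. For the next 6 days the cultures received M-CSF at 50 ng/ml, FSL-1 at 20 ng/ml, or FSL-1 at 20 ng/ml together with nutlin-3a at 10 µM, and each of these 3 groups has 2 arrays. The labels do not say whether M-CSF was also given with FSL-1, name no age, sex or number of animals, and do not say whether the 2 replicates came from separate cultures, so p-values measure only how far these samples differ, and that spread may be technical. If M-CSF was not given with FSL-1, the addition of FSL-1 and the lack of M-CSF cannot be told apart in comparisons with the M-CSF group. FSL-1 is a synthetic lipopeptide that stimulates TLR2 together with TLR6. The design text compares macrophages, multinucleated giant cells and cells also given nutlin-3a. Nutlin-3a keeps Mdm2, the ligase that limits p53, from binding it.

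M-CSF, encoded by Csf1, is the growth factor on which most macrophages depend for survival and proliferation. It signals through the receptor tyrosine kinase Csf1r, which IL-34 also binds. GM-CSF (Csf2) binds a specific alpha chain, Csf2ra, which pairs with a beta chain shared with the receptors for IL-3 and IL-5, Csf2rb; mice carry a related beta chain, Csf2rb2, that serves IL-3. G-CSF (Csf3) drives neutrophil production through Csf3r, which pairs with itself.

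Values are log2 expression as deposited, normalized by the authors with RMA, so 1 unit is a 2-fold difference. The brightness of one probe set cannot be set against that of another as an amount of RNA, so differences are read within a gene. Levels given for several genes, as for markers, serve only as a rough guide to dim and bright signals. As a guide to dim signals, the median was 4.26 over probe sets that name no gene and 5.51 over all genes. Replicate arrays correlated at 0.9929 to 0.9951 over all genes, against 0.9788 to 0.9858 between groups. Of 12 macrophage markers, 12 lay above the median of the unnamed probe sets in every group and 11 above 8. Genes passed at an adjusted p under 0.05 (limma, Benjamini-Hochberg over all genes). FSL-1 + nutlin-3a and M-CSF were each compared with the same FSL-1 arrays, so these 2 comparisons share samples.

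Among the 9 genes, Csf1 and Csf2rb2 were the members that passed when nutlin-3a was added, and the 250 bases before their transcription starts are shown for that reason (RefSeq, GRCm38.p6). The Csf1 stretch lies at chr3:107760470-107760719 and the Csf2rb2 stretch at chr15:78305722-78305971, both on the minus strand and written 5′ to 3′. Capitals mark matches, on either strand, to the NF-kB consensus, the AP-1 motif TGANTCA, the PU.1 core GAGGAA and the GC box GGGCGG.
Csf1: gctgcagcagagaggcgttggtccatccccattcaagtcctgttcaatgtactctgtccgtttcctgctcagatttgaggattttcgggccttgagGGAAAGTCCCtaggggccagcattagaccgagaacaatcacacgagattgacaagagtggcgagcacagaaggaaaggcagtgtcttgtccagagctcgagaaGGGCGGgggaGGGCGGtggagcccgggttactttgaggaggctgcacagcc
Csf2rb2: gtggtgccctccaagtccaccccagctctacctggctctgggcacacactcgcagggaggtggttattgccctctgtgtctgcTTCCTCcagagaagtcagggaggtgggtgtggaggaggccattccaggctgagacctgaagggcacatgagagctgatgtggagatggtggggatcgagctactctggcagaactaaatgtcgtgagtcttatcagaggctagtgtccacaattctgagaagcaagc

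The Csf1 stretch held 1 match to the NF-kB consensus, from base -154 to -145 relative to the start, and 2 GC boxes. An NF-kB match was found in 7.25% and a GC box in 32.7% of 32851 promoter stretches of this length. The Csf2rb2 stretch held 1 PU.1 core, read on the opposite strand as TTCCTC, a motif found in 23.3% of stretches. Neither stretch held the AP-1 motif, which was found in 6.75%. A match is a description of letters and shows no binding. Of the 5 members that passed in any comparison, 3 have an entry in the promoter table, the third being Csf2ra with 2 PU.1 cores and 1 GC box.

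Csf1, the M-CSF gene, showed the widest range of the 9 genes. Its log2 level was 6.51 and 6.89 on the M-CSF arrays, 9.72 and 9.72 on the FSL-1 arrays, and 6.25 and 6.22 with FSL-1 + nutlin-3a. Both FSL-1 arrays stood far above the other 4, and no groups overlapped. With FSL-1, Csf1 rose 8.10-fold over M-CSF (log2 change 3.02, SE 0.146, 95% interval 2.68 to 3.36, adjusted p = 3.05e-05), the 29th highest change of 22180 genes. When nutlin-3a was added to FSL-1, Csf1 fell 11.2-fold (log2 change -3.48, SE 0.146, 95% interval -3.82 to -3.14, adjusted p = 0.000119), the lowest change of all genes. Both calls held under every alternative run, 17 for each, with changes of 2.82 to 3.21 and -3.50 to -3.42. RNA was taken from sorted cells, with the gate not named, and each array holds the RNA of many cells. A change in the share of a cell type and a change in RNA per cell cannot be told apart.

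The Csf1 level with nutlin-3a was not above that in M-CSF. The log2 change against M-CSF was -0.47 (SE 0.146, 95% interval -0.80 to -0.13, adjusted p = 0.0931), so it did not pass, although both nutlin-3a arrays lay below both M-CSF arrays. It passed without M-CSF replicate 1 (change -0.66, adjusted p = 0.0452) and in 3 of 17 alternatives in all, over which the adjusted p ran from 0.0321 to 1. The order of Csf1 levels was therefore FSL-1 first, with M-CSF and FSL-1 + nutlin-3a not separated by the test.

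Some fibroblast and stromal markers, from cells known to make M-CSF, passed in the directions of Csf1, and most did not pass. Their mean level over 16 genes was 5.29 to 5.35 on the M-CSF arrays, 5.79 to 5.99 on the FSL-1 arrays and 5.33 to 5.51 with nutlin-3a. With FSL-1, 3 of 16 rose (Pdpn, with a log2 change of 4.11, Acta2 and Vcam1) and 13 did not pass, with a median of 0.26 over the 16. The 13 included Col1a1, Col1a2, Col3a1, Pdgfra, Pdgfrb, Dcn and Lum. With nutlin-3a added, 4 of 16 fell (Pdpn -1.26, Acta2 -1.33, Fn1 -1.67 and Col1a2 -0.80) and 12 did not pass, with a median of -0.16. In FSL-1, 14 of the 16 markers lay above the median of the unnamed probe sets. Pdgfra (4.28) was near that median, and Lum (2.84) and Lepr (3.15) lay below it. Pdpn was at 10.57, Acta2 at 8.59, Col1a1 at 7.23 and Fn1 at 7.17. The part of such cells in the Csf1 result, and whether the sort had removed them, was not tested. Of 12 macrophage markers, 3 rose and 0 fell with FSL-1 (limma; 6 and 1 at an unadjusted p under 0.05), and 0 rose and 2 fell with nutlin-3a added (1 and 3). Neutrophil markers, with 4 of 16 higher and 0 lower with FSL-1, and 0 higher and 2 lower with nutlin-3a added, are given beside Csf3r. In the lists of endothelial (12 genes), dendritic (13), lymphocyte (14) and erythroid, mast cell and megakaryocyte markers (9), 0, 2, 2 and 1 rose and 1, 1, 1 and 0 fell with FSL-1. With nutlin-3a added, 1, 1, 2 and 0 rose and 2, 1, 0 and 1 fell. Beside these marker counts, 3.91% of all genes rose and 2.95% fell with FSL-1, and 2.38% rose and 4.12% fell with nutlin-3a added.

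**Figure D1:**
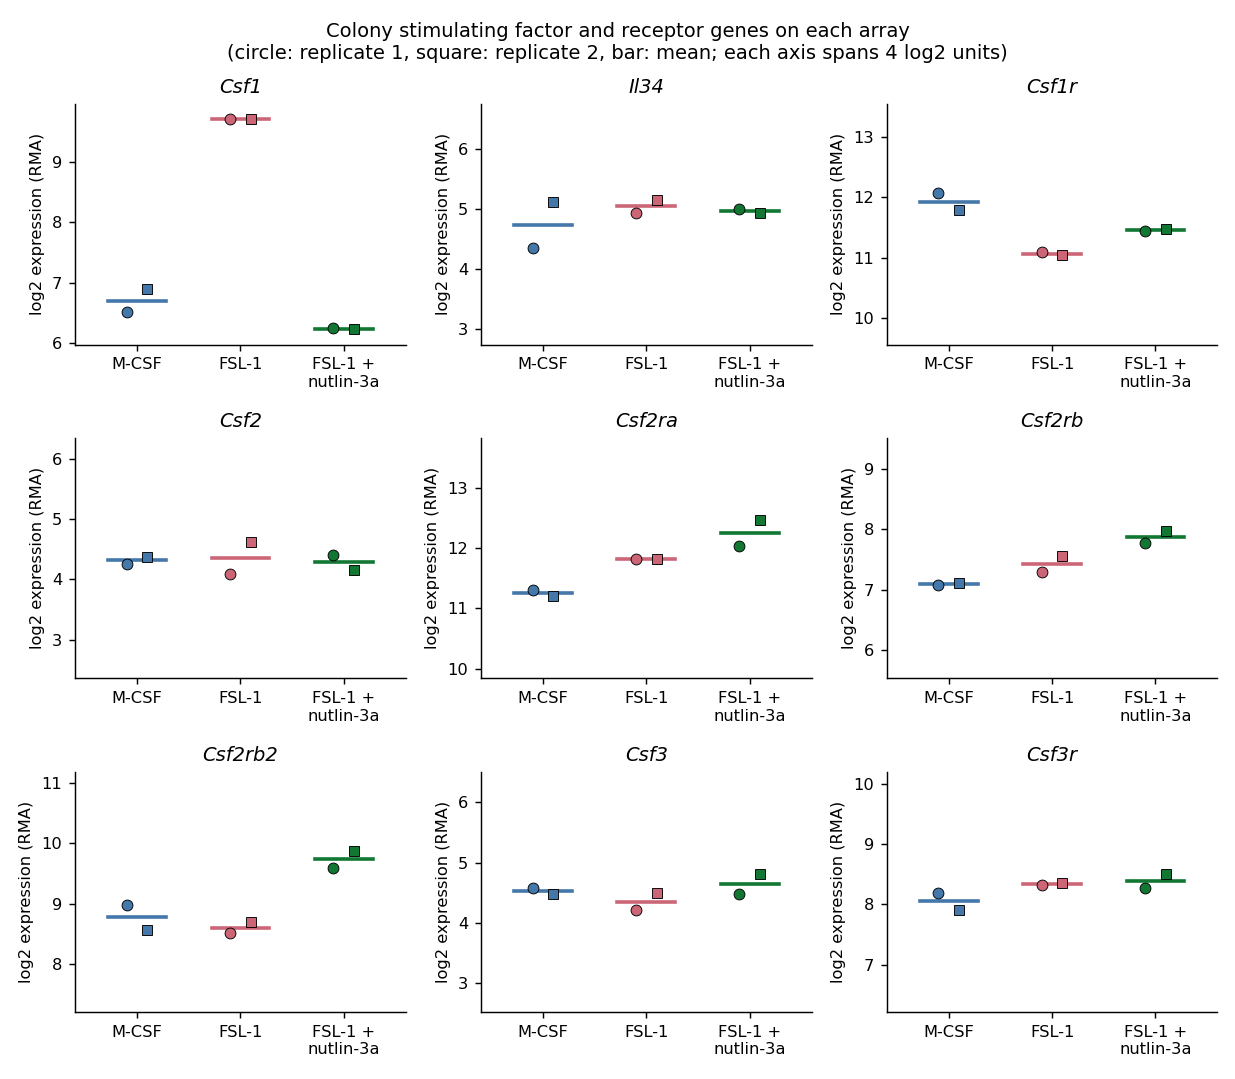
Log2 expression of the 9 genes on each of the 6 arrays (vertical axes, 4 log2 units in every panel) by group; circles are replicate 1, squares replicate 2 and bars the group means. Csf1 stands at 9.72 on both FSL-1 arrays and between 6.22 and 6.89 on the other 4, while Csf2, Csf3 and Il34 stay between 4.09 and 5.15.

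Csf1r, the receptor for M-CSF and IL-34, was lower with FSL-1. It read 12.07 and 11.78 in M-CSF, 11.09 and 11.04 in FSL-1, and 11.45 and 11.48 with FSL-1 + nutlin-3a. The groups did not overlap, with M-CSF highest, FSL-1 lowest and nutlin-3a between them. Csf1r fell 1.82-fold with FSL-1 (log2 change -0.87, SE 0.132, 95% interval -1.17 to -0.56, adjusted p = 0.00858). This call was lost without M-CSF replicate 1 (change -0.72, adjusted p = 0.0562), FSL-1 replicate 1 (-0.89, adjusted p = 0.0638) or FSL-1 replicate 2 (-0.84, adjusted p = 0.0731), and with a fold minimum of 1.5 (adjusted p = 1). Over all 17 alternatives its adjusted p ran from 4.86e-05 to 1.

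The middle position of the nutlin-3a cultures was not resolved by the test. Csf1r had a log2 change of 0.40 against FSL-1 (SE 0.132, 95% interval 0.10 to 0.71, adjusted p = 0.126) and of -0.47 against M-CSF (SE 0.132, 95% interval -0.77 to -0.16, adjusted p = 0.0679). With trend and robust variance estimates these adjusted p were 0.0106 and 0.00317, the lowest over alternatives that reached 1 in both cases. The ligand and its receptor thus lay in opposite order with FSL-1 against M-CSF, Csf1 higher and Csf1r lower.

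Il34, the second ligand of Csf1r, was dim and showed no call. Its levels were 4.34 and 5.11 in M-CSF, 4.94 and 5.15 in FSL-1, and 5.00 and 4.93 with nutlin-3a. The 2 M-CSF arrays spanned the other groups but for 1 FSL-1 array. Its log2 change was 0.32 with FSL-1 (95% interval -0.21 to 0.85, adjusted p = 0.502), and -0.08 with nutlin-3a added (95% interval -0.61 to 0.45, adjusted p = 0.891).

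Csf2, the GM-CSF gene, lay close to the median of the unnamed probe sets in all 3 groups. The values were 4.25 and 4.38 in M-CSF, 4.09 and 4.62 in FSL-1, and 4.41 and 4.15 with nutlin-3a. All groups overlapped. The log2 change was 0.04 with FSL-1 (95% interval -0.39 to 0.47, adjusted p = 0.941) and -0.07 when nutlin-3a was added (95% interval -0.51 to 0.36, adjusted p = 0.873). The other Csf2 probe set was dimmer still, from 3.19 to 3.59 over the 6 arrays. At such levels a change in the transcript may not be visible on the array.

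Csf2ra, the GM-CSF receptor alpha chain, was lowest in M-CSF and highest with nutlin-3a. It read 11.30 and 11.20 in M-CSF, 11.83 and 11.81 in FSL-1, and 12.03 and 12.46 with FSL-1 + nutlin-3a. No groups overlapped. The difference that passed was that between the ends, where Csf2ra rose 1.99-fold with FSL-1 + nutlin-3a against M-CSF (log2 change 0.99, SE 0.157, 95% interval 0.63 to 1.36, adjusted p = 0.00652). The call held in 16 of 17 alternatives, all but the fold minimum of 1.5 (adjusted p = 0.513). The single steps did not pass. Csf2ra had a log2 change of 0.57 with FSL-1 (95% interval 0.21 to 0.93, adjusted p = 0.0755) and of 0.43 with nutlin-3a added (95% interval 0.06 to 0.79, adjusted p = 0.166). The first step passed (limma) with trend and robust variance estimates (adjusted p = 0.00687), both dim filters (0.0238 and 0.0446) and the compared groups alone (0.0389). Leaving out a nutlin-3a array repeats this last fit and is no separate support.

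Csf2rb, the beta chain shared by the GM-CSF, IL-3 and IL-5 receptors, had the same order of groups. Its levels were 7.07 and 7.12 in M-CSF, 7.29 and 7.56 in FSL-1, and 7.78 and 7.98 with nutlin-3a, again without overlap. It rose 1.72-fold with FSL-1 + nutlin-3a against M-CSF (log2 change 0.79, SE 0.139, 95% interval 0.47 to 1.11, adjusted p = 0.0109). The call was lost without M-CSF replicate 1 (0.76, adjusted p = 0.0654) or FSL-1 + nutlin-3a replicate 2 (0.69, adjusted p = 0.0692), and over 17 alternatives the adjusted p ran from 0.00129 to 1. Its changes of 0.33 with FSL-1 (adjusted p = 0.22) and 0.45 with nutlin-3a added (adjusted p = 0.104) did not pass.

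Csf2rb2, the IL-3 beta chain, differed with nutlin-3a. It read 8.98 and 8.56 in M-CSF, 8.52 and 8.69 in FSL-1, and 9.60 and 9.87 with FSL-1 + nutlin-3a. Both nutlin-3a arrays lay above the other 4, and the M-CSF and FSL-1 arrays overlapped. Csf2rb2 rose 2.19-fold when nutlin-3a was added (log2 change 1.13, SE 0.172, 95% interval 0.73 to 1.53, adjusted p = 0.00961), the 50th highest change of 22180 genes. That call was lost without FSL-1 replicate 1 (1.04, adjusted p = 0.0827), FSL-1 replicate 2 (1.22, adjusted p = 0.0516) or FSL-1 + nutlin-3a replicate 2 (0.99, adjusted p = 0.0605), with adjusted p from 0.000296 to 0.452 over 17 alternatives.

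Against M-CSF, Csf2rb2 rose 1.95-fold with FSL-1 + nutlin-3a (log2 change 0.96, SE 0.172, 95% interval 0.57 to 1.36, adjusted p = 0.0115). It lost this call without M-CSF replicate 2 (0.75, adjusted p = 0.0579) or FSL-1 + nutlin-3a replicate 2 (0.83, adjusted p = 0.0734), with adjusted p from 0.000562 to 0.859 over 17 alternatives. FSL-1 alone gave a log2 change of -0.17 (95% interval -0.57 to 0.23, adjusted p = 0.664), and its sign turned without M-CSF replicate 1 (0.04). Csf2rb and Csf2rb2 are neighbours on chromosome 15, with 0 protein-coding genes between them, and are related in sequence. Whether either probe set also detects the other transcript was not tested, nor was the difference between the changes of the 2 genes.

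**Figure D2:**
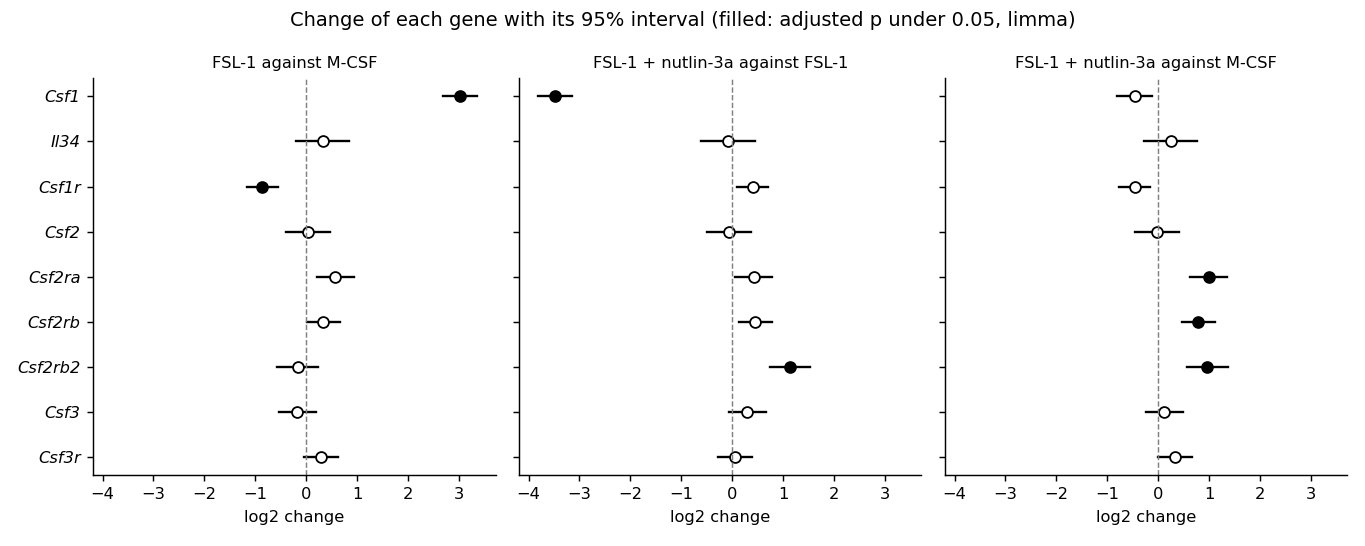
Log2 change of each of the 9 genes (points) with its 95% interval (lines) in the 3 comparisons; filled points passed an adjusted p of 0.05. Csf1 lies at 3.02 with FSL-1 and at -3.48 when nutlin-3a is added, and the filled points against M-CSF on the right are Csf2ra (0.99), Csf2rb (0.79) and Csf2rb2 (0.96).

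Csf3, the G-CSF gene, was dim in every group. Its levels were 4.57 and 4.48 in M-CSF, 4.21 and 4.49 in FSL-1, and 4.48 and 4.81 with nutlin-3a. The groups overlapped in all 3 comparisons. The log2 change was -0.18 with FSL-1 (95% interval -0.54 to 0.19, adjusted p = 0.61) and 0.30 with nutlin-3a added (95% interval -0.06 to 0.66, adjusted p = 0.33).

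Csf3r, the G-CSF receptor, was well above the dim range. It read 8.20 and 7.90 in M-CSF, 8.33 and 8.36 in FSL-1, and 8.27 and 8.51 with nutlin-3a. Both FSL-1 arrays lay above both M-CSF arrays, yet the log2 change of 0.29 (95% interval -0.04 to 0.63, adjusted p = 0.31) did not pass. With nutlin-3a added the change was 0.05 (95% interval -0.29 to 0.38, adjusted p = 0.899). Neutrophils carry Csf3r, and 4 of 16 neutrophil markers rose with FSL-1, namely Lcn2 (log2 change 2.77), Mmp8 (2.51), S100a8 (2.40) and Cxcr2 (0.60), while 0 fell (limma; 2 at an unadjusted p under 0.05). With nutlin-3a added, 2 fell, Lcn2 (-1.78) and Mmp8 (-0.62), and 0 rose (limma; 2 at an unadjusted p under 0.05). Ly6g, which defines mouse neutrophils, was at 4.05 in M-CSF and 4.02 in FSL-1, near the unnamed probe sets. The mean level of the 16 markers was 4.59 to 4.65 in M-CSF, 5.15 to 5.17 in FSL-1 and 5.01 to 5.02 with nutlin-3a. The part of neutrophils in the Csf3r values, and whether the sort had removed them, was not tested.

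Counted together, 1 of 9 genes rose with FSL-1 (Csf1, where 3.91% of all genes rose) and 1 fell (Csf1r, where 2.95% fell). With nutlin-3a added, 1 rose (Csf2rb2, background 2.38%) and 1 fell (Csf1, background 4.12%). Between FSL-1 + nutlin-3a and M-CSF, 3 rose (Csf2ra, Csf2rb and Csf2rb2, background 4.58%). By limma's adjusted p 0 fell there, against 4.94% of all genes, with 2 lower at an unadjusted p under 0.05 (Csf1 and Csf1r). The groups did not overlap for 5, 5 and 6 of the 9 genes in these comparisons, against 50.2%, 50.9% and 51.5% of all genes, so the shares without overlap were close to the background. The median log2 change of the 9 genes was 0.29, 0.30 and 0.24, beside -0.01, 0.02 and 0.02 over all genes. Each of these medians is the change of 1 gene that did not pass, Csf3r, Csf3 and Il34 in turn, so they show no shared rise of the 9 genes.

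**Figure D3:**
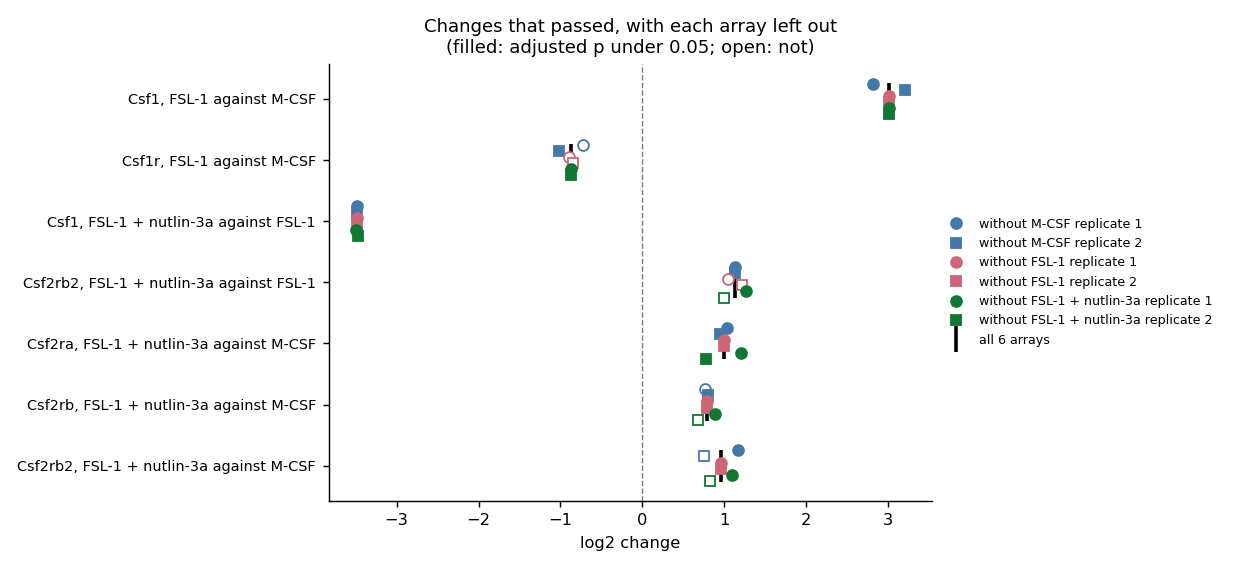
Log2 change (horizontal axis) of the 7 member results that passed, with all 6 arrays (black bars) and with each array left out (symbols; filled where adjusted p stayed under 0.05). The Csf1 and Csf2ra symbols are all filled, while Csf1r, Csf2rb and Csf2rb2 have open symbols.

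Genes with the most similar profiles were taken as those with the smallest root mean square difference from the member over the 6 arrays, after each gene was centred on its mean. For Csf1 they were Clec4e, a C-type lectin receptor (difference 0.289 log2 units), Ptgir, the prostacyclin receptor (0.340), and Cox6a2, a cytochrome oxidase subunit (0.399), where Csf1 itself deviated from its mean by 1.55. Clec4e had log2 changes of 2.69 with FSL-1 and -2.88 with nutlin-3a added, Ptgir 2.90 and -2.78, and Cox6a2 2.08 and -3.0. For Csf1r, which deviated by 0.364, they were the scavenger receptor Stab1 (0.0649), Pnpla7, a lysophospholipase (0.0727), and Kcnk6, a potassium channel (0.0736). Stab1 had a log2 change of -0.95 with FSL-1, Pnpla7 -0.80 and Kcnk6 -0.80, and the latter 2 lost their calls without M-CSF replicate 1 or either FSL-1 array.

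Csf2ra, which deviated from its mean by 0.427, was closest to Nsun3, a methyltransferase of a mitochondrial tRNA (0.0661), Slc25a35, a mitochondrial carrier (0.0793), and Junb, an AP-1 subunit (0.0797). Csf2rb, with 0.337, was closest to Cyp2d34 (0.0451), Lrfn3 (0.0589) and the adhesion protein gene Nectin2 (0.0624). Csf2rb2, with 0.522, was closest to Psrc1, a spindle protein gene (0.0931), Irs2, an adaptor of insulin and IL-4 signalling (0.116), and Mettl27 (0.121). With 6 arrays and 22180 genes, close profiles are a description and say nothing of shared function.

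Genes that act with these receptors were described from 7 lists written from general knowledge of the pathway, with earlier results of these data known. A list name gives the role for which its genes were gathered, and that role was not tested in these cultures. Over all genes, 3.91% rose and 2.95% fell with FSL-1, and 2.38% rose and 4.12% fell with nutlin-3a added. Between FSL-1 + nutlin-3a and M-CSF, 4.58% rose and 4.94% fell. Among 28 measured genes of M-CSF receptor signalling, 3 rose and 3 fell with FSL-1 (median log2 change -0.01, against -0.01 over all genes). By the smallest p, 4 genes were the adaptor Stap1 (2.17, SE 0.145), the ubiquitin ligase Cblb (-0.76), the kinase Src (1.10) and the lipid kinase subunit Pik3cg (-0.74). The count that rose was 1 without FSL-1 replicate 1 or 2, and the count that fell was 0 without M-CSF replicate 1 or either FSL-1 array. With nutlin-3a added, 2 rose (Tyrobp 0.73, an ITAM adaptor, and Cbl 0.82, the ligase that marks Csf1r for degradation) and 2 fell (the phosphatase Ptpn6 -0.57 and the kinase Fyn -0.57), with a median of 0.10. These counts were both 0 on dropping either FSL-1 array or FSL-1 + nutlin-3a replicate 1, and 1 and 0 on dropping its replicate 2.

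Of 23 measured genes in the list for common beta chain and G-CSF receptor signalling, 5 rose with FSL-1 and 0 fell by limma's adjusted p. At limma's unadjusted p under 0.05, 7 rose and 1 fell, and the median change was 0.13. Slpi and Ifitm6 are in this list but are not parts of the signalling itself. The STAT-induced kinase Pim1 rose by 1.24 (SE 0.112), the feedback inhibitor Socs3 by 1.04, the protease inhibitor Slpi by 1.99 and Ifitm6 by 1.38. The mean of each gene's probe sets gave smaller changes for Pim1 (0.84) and Socs3 (0.80). With nutlin-3a added, 3 fell and 0 rose (4 and 0 at an unadjusted p under 0.05; median 0.01), namely Ifitm6 (-2.22, SE 0.16), Pim1 (-0.91) and the cytokine Osm (-0.52). The mean of its probe sets put Pim1 at -0.54 there (adjusted p = 0.0402; over 17 alternatives, 5.82e-05 to 0.627). The Osm call was lost without any 1 of the 6 arrays, with adjusted p from 0.0570 to 0.198.

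Among transcription factors known to act at the genes of these ligands and receptors, Ets2 and Egr2 rose with FSL-1 and fell when nutlin-3a was added, in comparisons that share the FSL-1 arrays. Of 28 measured, 7 rose and 2 fell with FSL-1 (median -0.01), with Ets2 at 3.18 (SE 0.179), Egr2 at 1.28, Irf4 at -1.19 and Maf at -0.97; the 7 became 3 without FSL-1 replicate 2. With nutlin-3a added, 3 fell and 2 rose (median 0.14), with Egr2 at -1.20 (SE 0.112), Ets2 at -1.42, Cebpa, a factor of myeloid differentiation, at 0.68 and Cebpd at -0.64. The 2 became 0 when 1 compared array, whichever of the 4, was dropped, and Cebpd lost its call without any 1 of the 6 arrays.

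Of 24 measured macrophage genes listed as maintained by M-CSF, 8 fell and 2 rose with FSL-1, with a median log2 change of -0.32. Whether M-CSF maintained them in these cultures was not tested. The iron exporter Slc40a1 had -2.37 (SE 0.111), the carbonyl reductase Cbr2 -1.52, the neonatal Fc receptor Fcgrt -1.49 and Maf -0.97. The 8 became 5 without FSL-1 replicate 1; the 2 became 1 on dropping M-CSF replicate 2 and 0 on dropping M-CSF replicate 1 or either FSL-1 array. With nutlin-3a added, 5 fell and 2 rose (median 0.04), with Cbr2 at -1.83 (SE 0.131), Slc40a1 at 1.51, the mannose receptor Mrc1 at -0.85 and the complement chain C1qa at -1.03. The 5 became 1 on dropping FSL-1 replicate 2 and 2 on dropping FSL-1 replicate 1 or either nutlin-3a array, and the 2 became 1 in each of these fits.

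Of 22 measured genes listed as raised by GM-CSF in macrophages and dendritic cells, 3 rose and 3 fell with FSL-1 (median -0.06). H2-Aa, an MHC class II chain, had a log2 change of -1.69 (SE 0.174), the fatty acid carrier Fabp4 1.28, the nuclear receptor Pparg -1.13 and Irf4 -1.19. With nutlin-3a added, 2 fell, Fabp4 (-2.19, SE 0.14) and the costimulator Cd86 (-1.94), and 1 rose, the integrin chain Itgax (0.88; median of the list -0.04). Itgax lost its call without FSL-1 replicate 1 (adjusted p = 0.102), FSL-1 replicate 2 (adjusted p = 0.0507) or FSL-1 + nutlin-3a replicate 1 (adjusted p = 0.0696).

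Among 23 genes of other blood cell growth factors and receptors, 5 fell and 1 rose with FSL-1 (median 0.00). The receptor gene Il7r rose by 1.44 (SE 0.122), while Il6ra had -1.64, Lifr -1.30 and Kitl, the stem cell factor gene, -1.33; the 5 became 3 without FSL-1 replicate 1. With nutlin-3a added, 1 rose (Il13ra1, 0.94, lost without FSL-1 replicate 1 at adjusted p = 0.064) and 0 fell (limma; 1 at an unadjusted p under 0.05; median 0.01). Of 21 genes of receptor shedding and trafficking, 1 rose with FSL-1 (Rhbdf2, which carries the sheddase Adam17, 0.58) and 0 fell (5 and 2 at an unadjusted p under 0.05; median 0.07). The Rhbdf2 call was lost without any 1 of the 6 arrays, and without FSL-1 replicate 1 the list had 2 other genes that passed higher. With nutlin-3a added, the inhibitor of metalloproteinases Timp3 (-1.54, SE 0.255) and Rab5a (-0.51) fell and the protease Furin (0.48) rose (median 0.07). The Rab5a and Furin calls were lost without any 1 of the 6 arrays and the Timp3 call without FSL-1 replicate 2 or either nutlin-3a array.

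Against M-CSF, FSL-1 + nutlin-3a gave calls in each of the 7 lists, whose median log2 changes ran from -0.32 (genes maintained by M-CSF) to 0.24 (transcription factors), beside 0.02 over all genes. In M-CSF receptor signalling 5 rose and 4 fell, with Stap1 at 2.02, Cblb at -1.16, Src at 1.39 and Spry2, an inhibitor of growth factor signalling, at 0.93; the 4 became 2 without M-CSF replicate 1 or either nutlin-3a array. In beta chain and G-CSF receptor signalling 2 rose, Socs3 (0.97) and Slpi (1.60), and 1 fell, Ifitm6 (-0.84), which was lost without M-CSF replicate 1 or FSL-1 + nutlin-3a replicate 1. The mean of its probe sets put Socs3 at 0.69 in this comparison. Of the transcription factors 7 rose and 2 fell, with Fos at 2.12, Ets2 at 1.76, Irf4 at -1.17 and Fosl2 at 0.99. By limma, 7 of the genes listed as maintained by M-CSF fell and 0 rose, with 13 and 1 at an unadjusted p under 0.05. Cbr2 was at -3.35 (SE 0.131), Mrc1 at -1.21, Fcgrt at -1.32 and Slc40a1 at -0.86.

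Of the genes raised by GM-CSF, 2 rose and 5 fell, with Pparg at -1.14, H2-Aa at -1.53, Irf4 at -1.17 and Cd86 at -0.96; the 2 became 1 without either M-CSF array or FSL-1 + nutlin-3a replicate 2. Of other growth factors and receptors 5 rose and 6 fell, with Il6ra at -1.65, Il13ra1 at 1.37, Il7r at 0.98 and Il6st, the gp130 chain, at -1.01. The 5 became 2 on dropping FSL-1 + nutlin-3a replicate 1 and 3 on dropping its replicate 2 or either M-CSF array. Of the shedding and trafficking genes 4 rose and 0 fell (limma; 5 and 2 at an unadjusted p under 0.05), with Adam8 at 1.10, Rhbdf2 at 0.79, Adam15 at 0.46 and Ap2a1 at 0.45. Adam15 and Ap2a1 lost their calls without any 1 of the 6 arrays, and the mean of its probe sets put Adam15 at 0.24 (adjusted p = 0.296; over 17 alternatives, 0.00147 to 1).

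**Figure D4:**
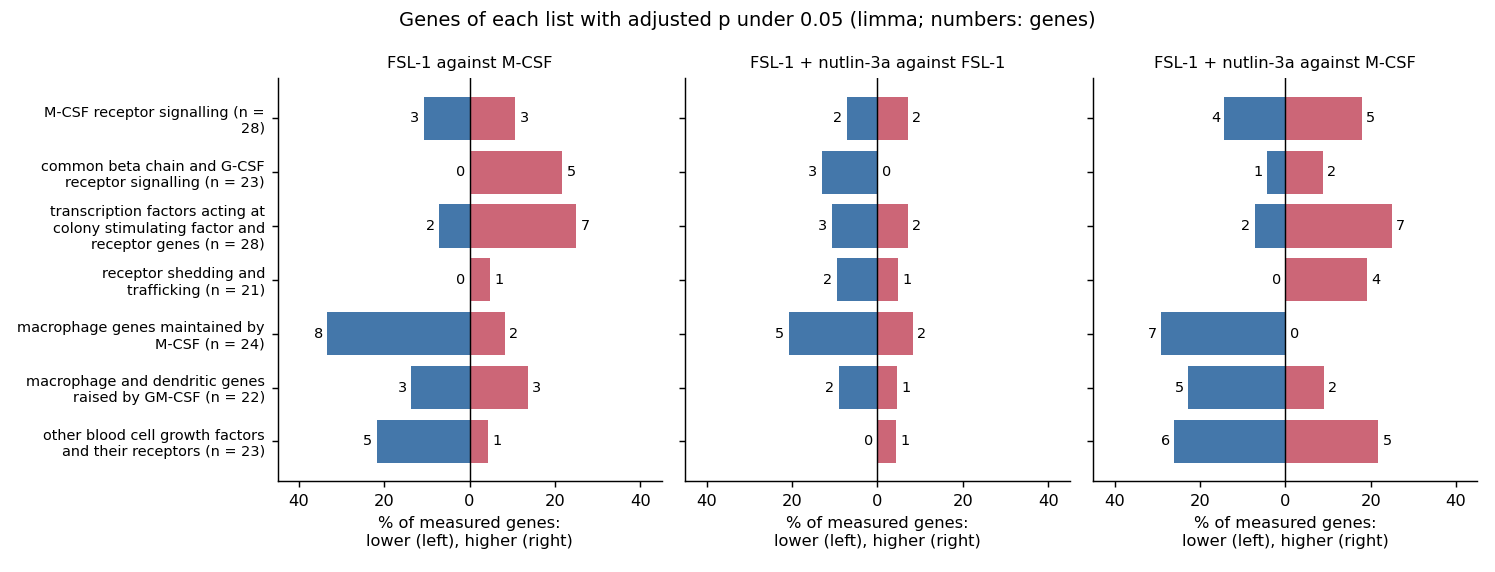
Share of the measured genes of each list (horizontal axis, percent) that passed lower (left, blue) or higher (right, red) in the 3 comparisons, with the number of genes at each bar. The list of genes maintained by M-CSF has 8 lower and 2 higher genes with FSL-1, and the transcription factor list has 7 higher and 2 lower. Over all genes, 3.91% passed higher and 2.95% lower with FSL-1.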

How the data were processed

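Sorted cells gave total RNA that was amplified and labelled with biotin for Affymetrix arrays, per the labels' protocols. No source used here gives the gate. Each deposited value is the log2 level of 1 probe set. The authors ran RMA, and the submitters' processing notes name Expression Console 1.4. This equalises the arrays by quantiles, so a change shared by most genes would not show. Groups and replicate numbers come from the labels.

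Of 34390 probe sets, 23521 name 1 gene, giving 22180 genes, all fitted together by lmFit and eBayes of limma 3.58.1 (R 4.3.3; all 6 arrays, 3 residual and 4.88 prior degrees of freedom). The number of arrays limits the precision. Same-numbered arrays deviated from their group means with correlations of -0.188, 0.0175 and -0.0248, so same-numbered arrays showed no clear deviation in the same direction. The -0.188 is for M-CSF with FSL-1, so M-CSF replicate 1 deviated in part like FSL-1 replicate 2. The cause was not tested. With 2 arrays a group, these correlations cannot show which samples were prepared together. The fit was tested on simulated data. Named genes are all members, up to 4 called genes with the smallest p per list and comparison, and the 3 nearest profiles per member that differed among the groups. Markers named beside Csf1 and Csf3r are those that passed, and Pdgfra, Pdgfrb, Dcn, Lum, Lepr, Col1a1, Col3a1 and Ly6g, chosen after their values were seen. The members and lists were chosen with earlier results of these data known. No protein sequences are used here. Alternatives were the variance model, normalization, centring, probe set rule, dim filters, compared groups alone, array weights, replicate block, each array left out and a fold minimum of 1.5; a crossed block and all alternatives for the lists were added after seeing the data. In every comparison, leaving out an array of the group not compared repeats the fit of the compared groups alone. The alternatives counted for each gene are therefore not all separate. Figures were drawn with matplotlib 3.10.9.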

Additional observations from a re-analysis of the deposited data

How the results depend on the processing

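The 27 member results (9 genes in 3 comparisons) kept direction and side of the threshold in all 27 cases under a repeated quantile normalization, array centring, array weights, the replicate number as a block and the block with crossed M-CSF numbers. The block gave 1167, 1005 and 1725 genes called (FSL-1 against M-CSF, nutlin-3a added, and FSL-1 + nutlin-3a against M-CSF), and the higher calls with nutlin-3a added were 340 in place of 528. The crossed block gave 1278, 1148 and 1971. Among the list genes named, the block ended the calls of Rhbdf2 with FSL-1, of Fyn, Osm, Rab5a and Furin with nutlin-3a added, and of Adam15 and Ap2a1 against M-CSF. Trend and robust variance estimates raised the genes called from 1521, 1441 and 2110 to 2744, 2658 and 3337, and members called to 2 higher with FSL-1, 4 higher with nutlin-3a added and 2 lower against M-CSF. A filter on a brighter group above the median gave 2772, 2651 and 3367 genes, and 2, 3 and 2 members in the same places. A filter at the unnamed probe sets gave 2 higher with FSL-1 and 1 lower against M-CSF, and the compared groups alone 2 higher with FSL-1. A fold minimum of 1.5 left 208, 159 and 370 genes; Csf1r (-0.87) then lost its call, as did Csf2rb2 with nutlin-3a added (1.13) and Csf2ra, Csf2rb and Csf2rb2 against M-CSF (0.99, 0.79 and 0.96), leaving 0 lower with FSL-1 and 0 higher in the other comparisons. The mean of probe sets turned Csf2 to 0.0081 with nutlin-3a added and 0.091 against M-CSF.

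With 1 array left out, genes called ranged from 451 to 1299, 352 to 1212 and 1158 to 1529. Members called were 1 to 2 higher and 0 to 1 lower with FSL-1, 0 to 1 higher with nutlin-3a added, and 1 to 3 higher and 0 to 1 lower against M-CSF. Csf1r ranged from -1.01 to -0.72 with FSL-1, Csf2rb2 from 0.99 to 1.27 with nutlin-3a added and from 0.75 to 1.17 against M-CSF, and Csf2rb from 0.69 to 0.89 there. Signs turned in uncalled results: Il34 from -0.062 to 0.70, -0.18 to 0.027 and -0.14 to 0.62; Csf2 from -0.23 to 0.31, -0.34 to 0.19 and -0.17 to 0.10; Csf2rb2 from -0.38 to 0.039 with FSL-1; Csf3r from -0.074 to 0.17 with nutlin-3a added; and Csf3 from -0.046 to 0.29 against M-CSF. The cause of these differences was not tested. Csf2, Csf3 and Il34 lay near the unnamed probe sets, where signal over background limits what can be seen.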
